A study of Homo sapiens with 6 samples.

Results

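LINC genes are human genes for long intergenic noncoding RNAs that carry a systematic number in place of a functional name. The genes described here were the rows of the count table whose symbol was LINC followed by digits only and whose mean normalized count over all 6 libraries was at least 20. The members were thus chosen by their level, a mean of normalized counts over both groups, and by their name. By this rule 104 of 583 LINC rows were taken, out of 29185 genes in the table. Levels are therefore given as a description. Since the mean covered both groups, a gene high in 1 group could be taken through that group alone.

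Long noncoding RNAs are transcribed by RNA polymerase II, and many are spliced and polyadenylated like messenger RNAs but carry no long open reading frame. Some act in cis on the gene next to them, some act in trans as scaffolds or as decoys for proteins and microRNAs, and for most no function is known. Their expression is often restricted to a few cell types, and in carcinomas several LINC genes have been studied for roles in growth, migration and invasion. KLF5 is a zinc-finger transcription factor of the Krüppel-like family that binds GC-rich and CACCC-type elements and is highly expressed in many epithelia.

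RNA was sequenced from SKOV3, an established human ovarian carcinoma line, in 2 groups of 3 libraries each. The sh-NC group carried a lentiviral pLKO.1-EGFP-Puro vector with a control hairpin (the labels give its genotype as WT), and the sh-KLF5 group carried the same vector with a hairpin against KLF5. Both were kept under puromycin until the cells were stably transduced, and polyadenylated RNA was selected with oligo-dT beads. The sources used here do not say that more than a single KLF5 hairpin was used, and they describe no rescue of KLF5 in these libraries. No label says that the libraries of a group came from separate cultures. The p-values therefore measure the spread between these libraries, which may be technical.

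The libraries held 15852319 to 17543896 reads assigned to genes. KLF5, the targeted gene, had normalized counts of 4371, 4425 and 4494 in sh-NC and of 1745, 1440 and 1436 in sh-KLF5. The groups did not overlap, and 34.8% of the sh-NC mean remained (log2 fold change -1.53, SE 0.12, limma adjusted p = 2.47e-07). An exact two-sided permutation test gave p = 0.1, the smallest value that 3 libraries against 3 allow. The epithelial marker list was summed at 25162 to 29960 normalized counts in sh-NC and at 11379 to 16196 in sh-KLF5, with a median log2 fold change of -0.25 over its 7 tested genes and KRT19 at 17 reads or fewer in every library. Most of the difference in the sum was KRT8, the only one called lower (21816 ± 2074 and 9817 ± 2027, SD, n = 3). KRT18 was also lower but short of the fold threshold (log2 fold change -0.64, limma adjusted p = 0.00343). EPCAM (log2 fold change -0.03), CDH1 (-0.15), PAX8 (-0.25), ERBB2 (-0.33) and KRT19 (1.14) did not pass the test. The fibroblast list was summed at 647 to 1029 and at 259 to 585, with DCN, COL1A2 and PDGFRA of its 5 genes called lower. LUM (log2 fold change -0.45) and COL1A1 (0.30) did not pass the test. All 4 leukocyte markers in the table stood at 3 reads or fewer in every library, and the endothelial list (3 genes, 1 tested, 0 called) was summed at 66.1 to 87.0 and at 34.1 to 73.7. The part of these shifts in the results on LINC genes was not tested. The libraries of the sh-KLF5 group also differed more among themselves (chi-square per degree of freedom 10.4 to 30.4) than those of the sh-NC group (4.33 to 8.41).

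Of the 104 LINC genes, 75 were annotated as lincRNA, 12 as processed transcripts, 8 as transcribed unprocessed pseudogenes, 5 as antisense, 2 as bidirectional promoter lncRNAs and 1 as a transcribed unitary pseudogene. The remaining one, LINC00672, was annotated as protein-coding in spite of its symbol. Their levels were low. The mean normalized count ranged from 21.3 to 945.4 with a median of 70.1, against a median of 506.9 over tested protein-coding genes, and 42 of the 104 stood below 50. In 96 genes the mean was at least 20 in both groups. LINC01252 reached it only in sh-NC (27.7 and 18.1), and 7 genes reached it only in sh-KLF5, among them LINC01444.

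The members just above the minimum were LINC00431 (mean 21.3), LINC02256 (21.4) and LINC01588 (21.6). Just below it stood LINC00968 (19.9), LINC01011 (19.7) and LINC00393 (19.5). LINC00968 missed the minimum with a group mean of 8.15 in sh-NC and 31.6 in sh-KLF5.

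The highest member was LINC01578, the gene also known as CHASERR, which lies beside the chromatin remodeller gene CHD2. The sh-NC libraries held 871, 884 and 866 normalized counts and the sh-KLF5 libraries 1230, 902 and 919, so that the groups did not overlap, but the log2 difference was 0.20 (limma adjusted p = 0.354). LINC00649 (mean 603.5), LINC00963 (590.1), LINC01278 (577.3) and LINC00665 (541.6) followed. Their log2 differences lay between -0.28 for LINC00963 and 0.15 for LINC00665, and none passed the test (limma adjusted p from 0.193 to 0.474). On the scale of normalized counts per kilobase of exon, which allows levels of different genes to be compared, LINC00165 was highest at 302, followed by LINC02582 at 186 and LINC01578 at 175.

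All 104 genes entered the test across 15803 genes. A gene was called where the limma adjusted p was under 0.05 and the log2 fold change of sh-KLF5 against sh-NC was above 1 or below -1. LINC02582, LINC01133 and LINC00689 fell, and LINC02154, LINC01444, LINC00472, LINC01443 and LINC00958 rose. These 8 genes were 7.69% of the members, against 5.28% called over all tested genes, 6.01% over tested genes in the same range of levels, 8.89% over 270 tested lincRNA-type genes and 3.84% over 521 tested antisense-type genes, the last 2 sets without a LINC number and with the same minimum mean. Rises made up 4.81% of the members (1.9% over all tested genes) and falls 2.88% (3.37%). Over tested genes in the same range of levels, rises made up 2.42% and falls 3.59%. Among the 270 lincRNA-type genes they made up 5.56% and 3.33%. LINC01444 was a member only through its sh-KLF5 values. Over the 96 genes with a mean of at least 20 in both groups, 7 were called (7.29%), 4 up (4.17%) and 3 down (3.12%). At any fold, 11 members had an adjusted p under 0.05 (10.6%, against 12.9% over all tested genes).

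As a whole the set hardly shifted. The median log2 fold change of the members was 0.07, beside -0.0023 over all tested genes, with 57 members above 0 and 47 below. The median absolute log2 fold change was 0.30 against 0.22, and 81 members (77.9%) lay within 0.5 of 0, against 78.9% of all tested genes. In 28 members (26.9%) the groups did not overlap, beside 31.3% over all tested genes. Of these, 15 had higher values in sh-KLF5 (14.4% of the members, 15.4% over all tested genes) and 13 had lower values (12.5% and 15.9%). All members summed to 13505 ± 533 normalized counts in the control and 12995 ± 577 after knockdown (SD, n = 3). Without LINC02582 the sums were 12686 ± 460 and 12968 ± 575, so that this 1 gene set the direction of the difference.

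**Figure D1:**
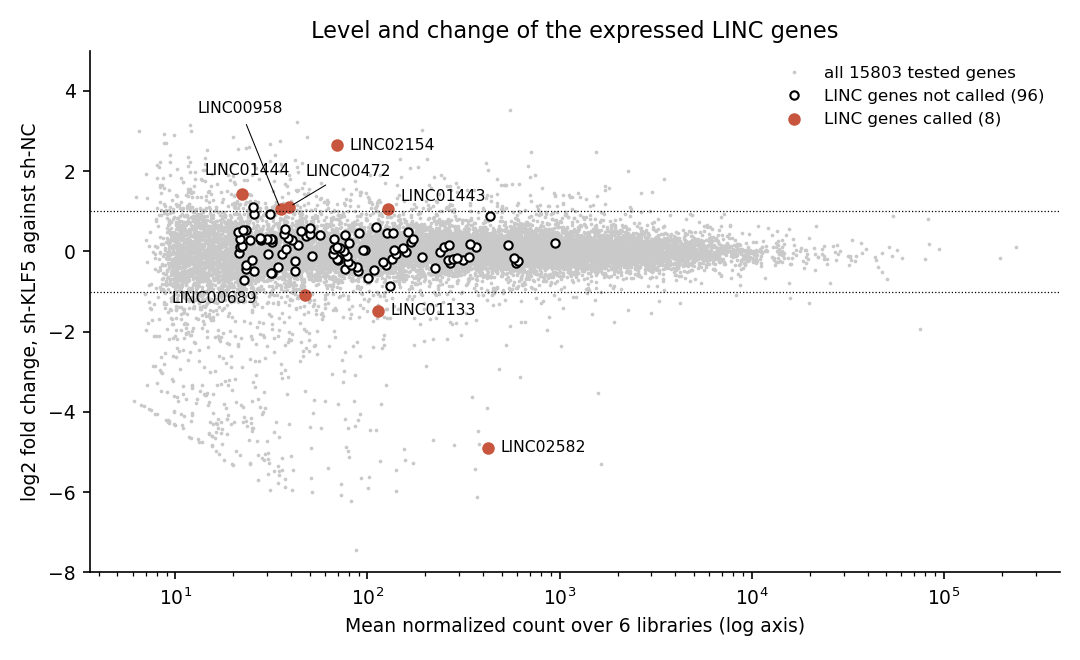
Mean normalized count over the 6 libraries (log axis) against the log2 fold change of sh-KLF5 over sh-NC for all 15803 tested genes (grey), the 96 LINC genes not called (open circles) and the 8 called (red). Dotted lines mark log2 fold changes of -1 and 1, most LINC genes lie close to 0, and LINC02582 is the lowest LINC gene at -4.90.

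The plot of level against change places the 104 LINC genes at the low end of the range of expression, inside the cloud formed by all tested genes. LINC02582 and LINC02154 lie farthest from 0 among them, whereas LINC00689, LINC00958, LINC01443 and LINC00472 lie close to the fold threshold.

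For the called members whose RefSeq promoter (GRCh38.p14) lies at the gene start of the table, 300 bases from 250 before to 50 after the RefSeq start are printed on the strand of the gene, since the hairpin targeted a factor that binds CACCC-type and GC-box-like elements. Capitals mark each match to CACCC or CCNCNCCC on either strand, so that GGGTG is a match on the other strand. A stretch that matches both motifs is marked once.
LINC01133, chr1:159960974-159961273, plus strand: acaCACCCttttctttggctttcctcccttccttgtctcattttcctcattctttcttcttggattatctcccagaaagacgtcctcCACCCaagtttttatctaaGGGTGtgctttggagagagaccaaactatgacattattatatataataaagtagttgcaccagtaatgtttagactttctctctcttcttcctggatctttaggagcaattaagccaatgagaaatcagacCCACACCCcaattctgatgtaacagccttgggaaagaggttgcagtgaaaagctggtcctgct
LINC01443, chr18:14946017-14946316, plus strand: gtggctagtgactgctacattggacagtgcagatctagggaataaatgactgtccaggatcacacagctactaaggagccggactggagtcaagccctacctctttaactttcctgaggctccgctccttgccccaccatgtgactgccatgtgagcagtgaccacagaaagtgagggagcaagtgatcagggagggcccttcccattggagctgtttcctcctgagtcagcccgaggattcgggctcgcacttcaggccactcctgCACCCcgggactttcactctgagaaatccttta
LINC01444, chr18:14970419-14970718, minus strand: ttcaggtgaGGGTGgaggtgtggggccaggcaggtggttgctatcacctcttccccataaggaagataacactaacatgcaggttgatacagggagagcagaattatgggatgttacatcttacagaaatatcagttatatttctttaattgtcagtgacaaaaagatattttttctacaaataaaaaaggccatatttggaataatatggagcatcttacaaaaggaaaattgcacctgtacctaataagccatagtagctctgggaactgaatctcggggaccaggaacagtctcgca
LINC00472, chr6:71420696-71420995, minus strand: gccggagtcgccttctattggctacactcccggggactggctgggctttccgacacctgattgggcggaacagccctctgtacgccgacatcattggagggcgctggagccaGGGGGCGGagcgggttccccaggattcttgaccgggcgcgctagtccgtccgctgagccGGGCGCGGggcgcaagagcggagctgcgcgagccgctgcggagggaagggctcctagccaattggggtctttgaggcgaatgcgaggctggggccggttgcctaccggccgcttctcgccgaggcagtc
CACCC was found 4 times in the LINC01133 window, once each in those of LINC01443 and LINC01444, and 0 times in that of LINC00472. CCNCNCCC was found once in the LINC01133 window, where it overlaps a CACCC, and 2 times in the LINC00472 window. Both motifs are short and common. CACCC was present in 58.9% and CCNCNCCC in 55.1% of 27305 RefSeq promoters of the same length, and in 44 (65.7%) and 43 (64.2%) of the 67 member promoters that could be matched. The RefSeq starts of LINC01133 and LINC00472 lay 6 and 24 bases from the gene starts of the table. That of LINC00689 lay 1832 bases away, so its window is not printed.

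**Figure D2:**
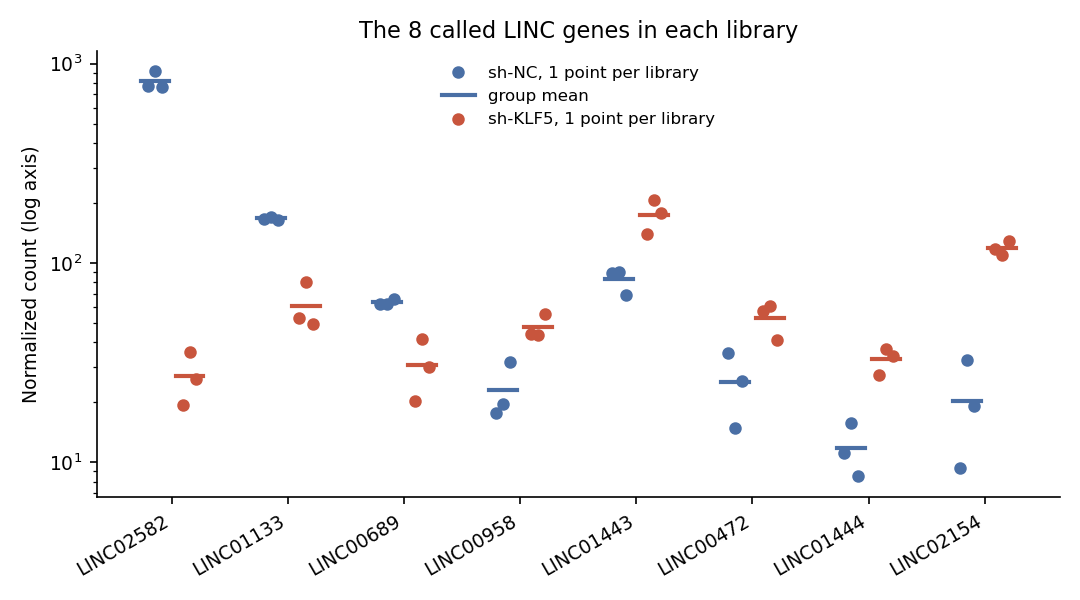
Normalized counts (log axis) of the 8 called LINC genes, ordered by log2 fold change, with 1 point per library and a bar at each group mean (sh-NC blue, sh-KLF5 red, n = 3 each). The groups do not overlap in any of the 8, and the distance between them is widest for LINC02582 and LINC02154.

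The plot of the called genes by library shows the fallen genes at the left and the risen genes at the right. The control values of LINC01133 and LINC00689 lie close together, whereas those of LINC00472, LINC00958, LINC01444 and LINC02154 are spread over a wider range at low counts.

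LINC02582 (ENSG00000261780, chr18:73324941-73349878, plus strand) is a 3-transcript gene of the long arm of chromosome 18. The sh-NC libraries held 773, 917 and 767 normalized counts, and the sh-KLF5 libraries held 19.4, 35.9 and 26.1. Every sh-NC library was far above every sh-KLF5 library. The means were 819 ± 85.1 and 27.1 ± 8.32 (SD, n = 3), so that 3.31% of the control level remained (log2 fold change -4.90, SE 0.21, limma adjusted p = 9.4e-10). The log2 fall was thus larger than that of KLF5 itself. In these bulk RNA samples, fewer cells expressing a gene and less RNA per cell cannot be told apart.

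No exon of LINC02582 overlapped another annotated gene, but 14.0% of its distinct 50-base stretches also stood in transcripts of 35 other genes. Among those genes were ESRG, LINC-ROR, XACT and HHLA1, of which ESRG and HHLA1 are known for the endogenous retrovirus HERV-H sequence they carry. Of the 35 genes, 18 were in the table and 9 were tested, with 0 called up and 0 called down, beside 5.28% called over all tested genes. Their median log2 fold change was -0.04. Among the tested genes only DNAL1, which encodes a dynein light chain, had an adjusted p under 0.05 (log2 fold change -0.46, limma adjusted p = 0.0220). The tested genes shared few stretches, at most 30 of the 310 (LRRK1). The genes sharing the most, AC009055.2 (151), ESRG (72) and ABHD12B (69), were not tested, so the 9 tested genes say little about them. For AC009055.2 the sh-NC libraries held 9.31, 15.8 and 29.7 normalized counts and the sh-KLF5 libraries 0, 1.94 and 0. Its few reads thus stood mostly in the sh-NC libraries. How reads from shared stretches were assigned is not given in the sources used here.

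LINC01133 (ENSG00000224259, chr1:159961218-159984750, plus strand) has been studied in several carcinomas, with effects on invasion reported in opposite directions. The sh-NC libraries held 167, 171 and 165 normalized counts and the sh-KLF5 libraries 53.0, 80.5 and 49.1. The control libraries were almost equal and all lay above the highest sh-KLF5 library. The mean fell from 167 ± 3.04 to 60.9 ± 17.1 (SD, n = 3), to 36.4% of the control (log2 fold change -1.48, SE 0.22, limma adjusted p = 0.000188). Only 0.888% of its distinct 50-base stretches were shared with other genes.

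LINC00689 (ENSG00000231419, chr7:159006522-159030195, plus strand), for which RefSeq lists the synonym STORM, was counted at 62.4, 62.1 and 65.8 in sh-NC and at 20.4, 41.7 and 30.1 in sh-KLF5. The control libraries were nearly equal and lay above all sh-KLF5 libraries, of which the second was the highest. The means were 63.4 ± 2.06 and 30.7 ± 10.7 (SD, n = 3, log2 fold change -1.08, SE 0.29, limma adjusted p = 0.0207). Of its exonic bases, 22.1% overlapped VIPR2, the gene of a receptor for vasoactive intestinal peptide, on the opposite strand. VIPR2 had normalized counts of 13.0, 4.93 and 9.55 in sh-NC and 1.02, 2.91 and 1.0 in sh-KLF5. Since the strand setting of the counting is not stated, reads from the 2 genes in the overlap cannot be told apart. The call on LINC00689 was lost on leaving out any 1 of the sh-NC libraries or the first sh-KLF5 library.

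LINC02154 (ENSG00000235385, chrX:13266048-13303452, minus strand), with the RefSeq synonym MALR, had the largest rise. The counts were 9.31, 32.5 and 19.1 in sh-NC and 117, 110 and 128 in sh-KLF5. The sh-KLF5 libraries lay well above the control libraries, which varied far more relative to their mean. The mean rose from 20.3 ± 11.7 to 118 ± 9.40 (SD, n = 3, log2 fold change 2.64, SE 0.35, limma adjusted p = 7.31e-05). The gene had no exonic overlap and no 50-base stretch in common with another gene.

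LINC01443 and LINC01444 form a sense and antisense pair on the short arm of chromosome 18. LINC01444 (ENSG00000264301, chr18:14969001-14970468, minus strand) lies within the body of LINC01443 (ENSG00000266554, chr18:14946267-14974215, plus strand) with no overlap of exons. LINC01443 was counted at 89.4, 89.7 and 69.0 in sh-NC and at 140, 206 and 177 in sh-KLF5. All sh-KLF5 libraries were above all control libraries (means 82.7 ± 11.9 and 174 ± 33.2, SD, n = 3, log2 fold change 1.06, SE 0.20, limma adjusted p = 0.00194). LINC01444 was counted at 11.2, 15.8 and 8.49 in sh-NC and at 27.5, 36.9 and 34.1 in sh-KLF5. The groups did not overlap, but the gene passed the minimum only through sh-KLF5, the group where it is high (means 11.8 ± 3.68 and 32.8 ± 4.80, SD, n = 3, log2 fold change 1.43, SE 0.37, limma adjusted p = 0.0165). Both genes had their highest value in the second sh-KLF5 library and their lowest control value in the third sh-NC library. Without the strand setting, reads of LINC01444 and unspliced reads of LINC01443 cannot be told apart. Both calls were lost without the third sh-NC library or without the second sh-KLF5 library.

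LINC00472 (ENSG00000233237, chr6:71344344-71420769, minus strand) has been described as a gene of low expression in breast carcinomas of poor outcome. Counts of 35.4, 14.8 and 25.5 in sh-NC stood against 57.1, 61.1 and 41.1 in sh-KLF5. The lowest sh-KLF5 library was above the highest control library by a small margin. The means were 25.2 ± 10.3 and 53.1 ± 10.6 (SD, n = 3, log2 fold change 1.11, SE 0.33, limma adjusted p = 0.0387), and the call was lost without the second or the third sh-NC library or the first or second sh-KLF5 library. Of its exonic bases, 7.75% overlapped the noncoding gene AL136164.2 on the same strand.

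LINC00472 was the only called member that held microRNA hairpins on its own strand, MIR30A and MIR30C2, and 1 other member, LINC01138, held MIR5087. The 5p arms of both hairpins in LINC00472 are shown because they share a seed. RefSeq (GRCh38.p14) places miR-30a-5p at chr6:71403595-71403616 and miR-30c-5p at chr6:71377003-71377025, both on the minus strand, and capitals mark the seed, bases 2 to 8.
hsa-miR-30a-5p: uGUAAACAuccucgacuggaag
hsa-miR-30c-5p: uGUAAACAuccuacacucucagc
Mature microRNAs carry no poly(A) tail and were not measured in these libraries.

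LINC00958 (ENSG00000251381, chr11:12961842-12989548, minus strand), also known as BLACAT2, has been linked to lymphatic spread of bladder carcinoma. It was counted at 17.7, 19.7 and 31.8 in sh-NC and at 43.8, 43.7 and 55.1 in sh-KLF5. The groups did not overlap, and the third library was the highest of its group in both. The means were 23.1 ± 7.65 and 47.5 ± 6.58 (SD, n = 3, log2 fold change 1.05, SE 0.31, limma adjusted p = 0.0355). The call was lost without the first or second sh-NC library or the second or the third sh-KLF5 library.

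Another 3 members had an adjusted p under 0.05 at a smaller fold. They are named after their values were seen. LINC00941, studied in gastrointestinal carcinomas, was counted at 345, 318 and 244 in sh-NC and at 631, 638 and 420 in sh-KLF5, with no overlap of the groups (log2 fold change 0.88, SE 0.18, limma adjusted p = 0.00267). LINC01547 was counted at 129, 199 and 174 in sh-NC and at 57.1, 124 and 105 in sh-KLF5. Its groups were separated by a narrow gap (log2 fold change -0.85, SE 0.26, limma adjusted p = 0.0397). LINC01836 was counted at 115, 128 and 128 in sh-NC and at 86.6, 68.9 and 78.2 in sh-KLF5, with all control libraries higher (log2 fold change -0.67, SE 0.19, limma adjusted p = 0.0323).

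Among 12 LINC genes with published roles in carcinoma, 10 were in the table and 7 were tested, with 1 called up (LINC00958), 1 called down (LINC01133) and a median log2 fold change of -0.0061. These 2 calls were 28.6% of only 7 genes, beside 7.69% over the members and 5.28% over all tested genes. Of the rest, LINC00467 came closest, with a mean of 137 ± 13.9 in the control and 190 ± 8.94 after knockdown (SD, n = 3, log2 fold change 0.47, limma adjusted p = 0.0761). LINC00662 was level, at 240 ± 33.2 and 237 ± 4.54 (log2 fold change -0.01). LINC01503 varied widely in sh-KLF5, at 85.3 ± 4.34 and 67.2 ± 27.9 (log2 fold change -0.43, limma adjusted p = 0.366). LINC00665 is given above, and LINC00511, below the minimum, did not pass the test (14.7 ± 4.43 and 11.7 ± 3.33).

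Each member was then set beside the protein-coding gene with the nearest gene start on its chromosome, since some long noncoding RNAs act on the gene next to them and neighbours can share regulation. The 104 pairs involved 98 protein-coding genes at a median distance of 50.5 kb, from 0.706 to 1520.7 kb. In 88 pairs the neighbour was tested, and 2 of these neighbours (2.27%) were called, against 5.54% of 12806 tested protein-coding genes. They were HIST1H2BJ, a histone gene, 169 kb from LINC00240 (log2 fold change -1.18), and CEBPB, a transcription factor gene of the C/EBP family, 102 kb from LINC01270 (1.10). Neither LINC gene beside them was called. LINC00240 differed by 0.31 (limma adjusted p = 0.562), opposite to HIST1H2BJ, and LINC01270 by 0.94 (limma adjusted p = 0.147), in the direction of CEBPB. The 2 log2 fold changes of a pair had the same sign in 42 of 88 cases, with Pearson's r of 0.05 and Spearman's rho of 0.07 across pairs, which share libraries and in some cases a neighbour. Within 10 kb, 10 of 17 tested pairs had the same sign (rho 0.37).

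**Figure D3:**
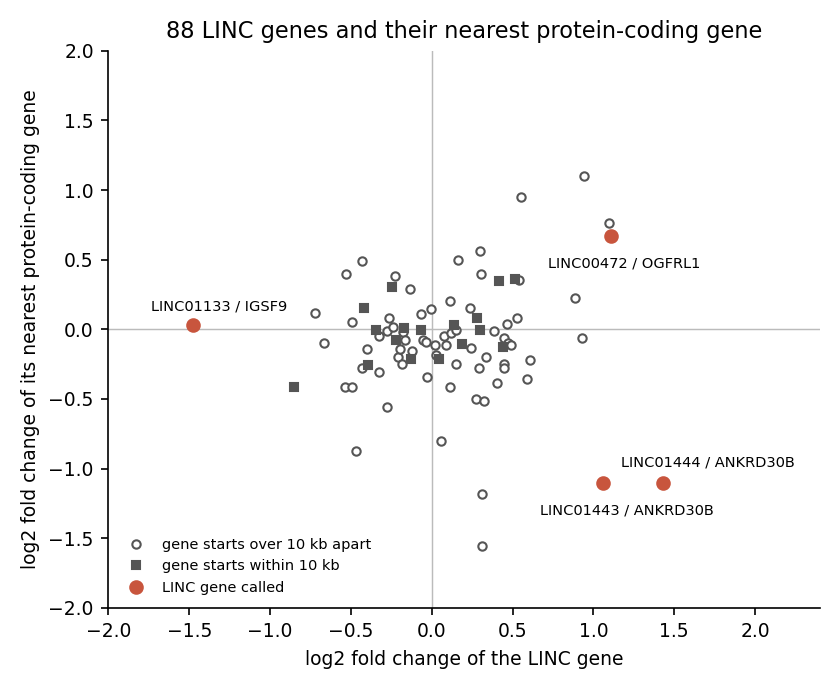
Log2 fold change (sh-KLF5 against sh-NC) of LINC genes against that of the nearest protein-coding gene by gene start, for the 88 pairs in which the neighbour was tested. Squares are pairs within 10 kb, red points are called LINC genes, LINC02582 and 3 other called genes are absent because their neighbour was not tested, and the points show no common direction.

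For the 8 called members, the nearest protein-coding gene was called in 0 cases, and it was tested in 4 cases, with ANKRD30B counted for both LINC01443 and LINC01444. Beside a share of 5.54% called over tested protein-coding genes, so few cases cannot show whether such neighbours were called less often. IGSF9, an immunoglobulin superfamily gene 34.2 kb from LINC01133, was counted at 47.5, 64.0 and 41.4 in sh-NC and at 46.9, 79.6 and 36.1 in sh-KLF5. The groups overlapped fully (log2 fold change 0.03, SE 0.30, limma adjusted p = 0.964), while LINC01133 fell to 36.4%. ANKRD30B, an ankyrin repeat gene, was nearest to LINC01443 (218 kb) and to LINC01444 (241 kb). It was counted at 27.0, 26.6 and 19.1 in sh-NC and at 7.13, 12.6 and 13.0 in sh-KLF5. Its difference had the opposite sign to that of its LINC neighbours and did not pass the test (log2 fold change -1.11, SE 0.40, limma adjusted p = 0.0850).

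OGFRL1, which encodes a protein related to the opioid growth factor receptor, lies 55.5 kb from LINC00472. It was counted at 1096, 1133 and 1095 in sh-NC and at 2332, 1587 and 1484 in sh-KLF5. All sh-KLF5 libraries were higher, as for LINC00472, and the first stood out above the others. The difference passed the adjusted p but not the fold threshold (log2 fold change 0.67, SE 0.15, limma adjusted p = 0.00571). The remaining nearest genes were too low to test, among them VIPR2, whose gene start lies 21.7 kb from that of LINC00689. NETO1, 583 kb from LINC02582, and ATXN3L, 52.2 kb from LINC02154, never exceeded 3 reads, and RASSF10, 47.7 kb from LINC00958, never exceeded 8. The nearest one that was tested lay 824 kb from LINC02582 (TIMM21, log2 fold change -0.11, limma adjusted p = 0.681), 291 kb from LINC02154 (TMSB4X, 0.44, adjusted p = 0.0204), 287 kb from LINC00958 (TEAD1, -0.08, adjusted p = 0.724) and 150 kb from LINC00689 (WDR60, -0.25, adjusted p = 0.214).

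Within 1 Mb of a called member lay 61 protein-coding genes, of which 44 were tested, 2 were called up and 2 down (9.09%, beside 5.54% of tested protein-coding genes). The median log2 fold change of the tested ones was 0.05. Near LINC01133, the planar polarity gene VANGL2 was lower (log2 fold change -1.94) and AIM2, a sensor of cytosolic DNA, was higher (1.17). Of these 2 called genes, only VANGL2 moved in the direction of LINC01133. Near LINC00958, MICAL2, which encodes an actin-oxidizing enzyme, was higher (1.15). Near LINC01443 and LINC01444, POTEC was counted at 92.2, 80.8 and 21.2 in sh-NC and at 3.06, 0.970 and 2.01 in sh-KLF5 (log2 fold change -4.26, limma adjusted p = 6.79e-05). POTEC belongs to a family of near-identical ankyrin-domain genes, so reads may have been divided between copies. Its fall was opposite to the rise of the LINC pair.

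**Figure D4:**
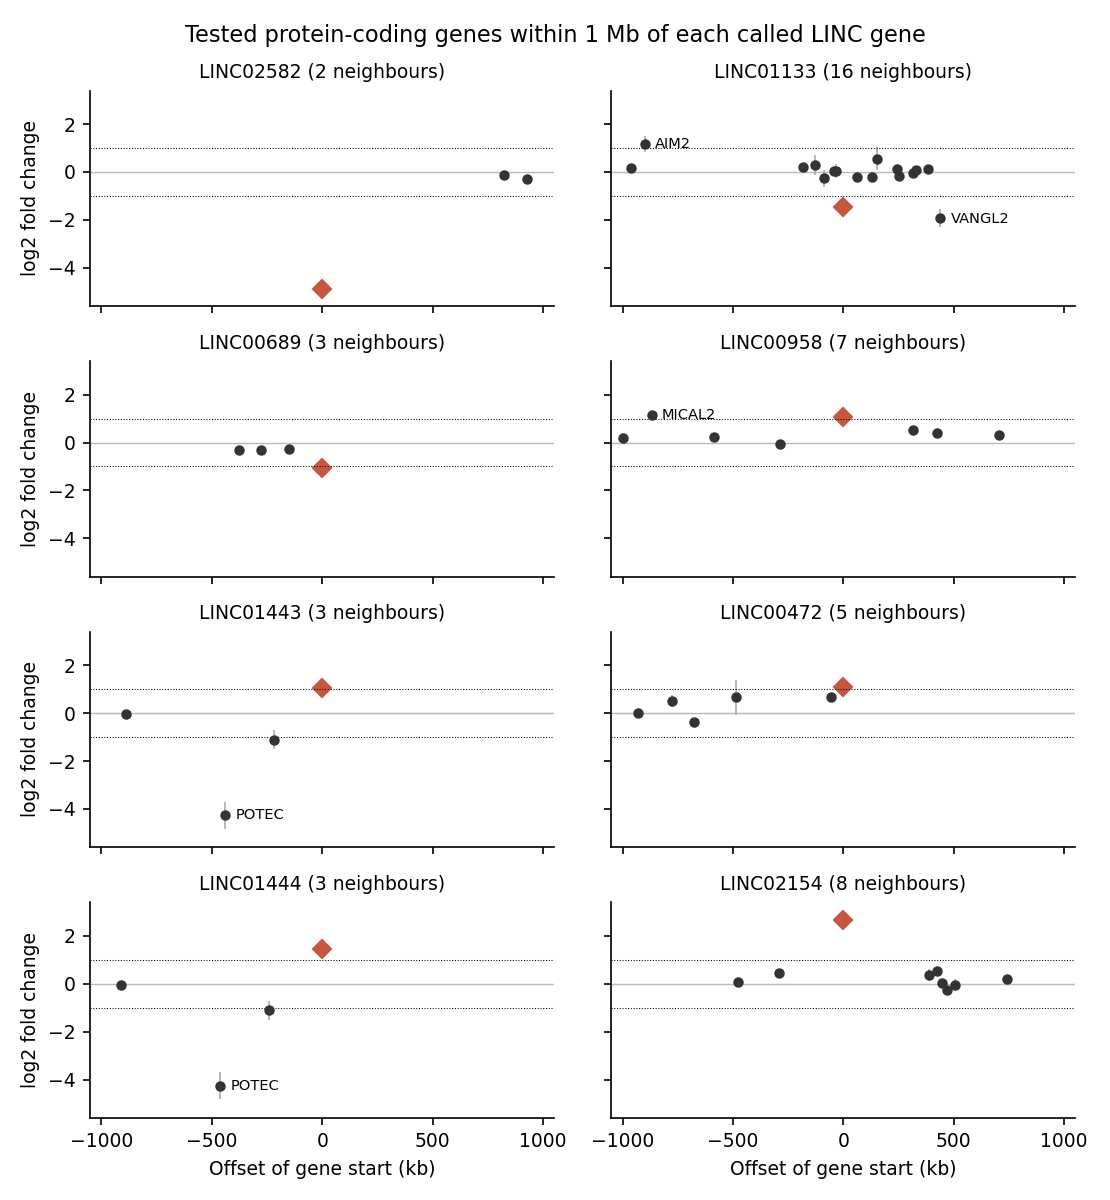
Log2 fold change of each called LINC gene (red diamond at 0 kb) and of the tested protein-coding genes whose gene start lies within 1 Mb (black points, bars are SE), by offset of the gene start in kb. Called neighbours are named, most neighbours lie near 0, and LINC02582 has 2 tested neighbours, at 824 and 926 kb.

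The plot of the neighbourhoods shows that the tested genes closest to LINC01133 stayed near 0, and that no protein-coding gene within 1 Mb was called for LINC02582, LINC00689, LINC00472 and LINC02154. The median log2 fold change of the tested neighbours had the sign of the LINC gene for LINC02582 (-0.20, 2 neighbours), LINC00689 (-0.33, 3), LINC00958 (0.29, 7), LINC00472 (0.52, 5) and LINC02154 (0.13, 8). It had the opposite sign for LINC01133 (0.05, 16) and for LINC01443 and LINC01444 (-1.11, the same 3 genes).

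The neighbours of the members with smaller changes varied. CAPRIN2, 85.9 kb from LINC00941, differed by 0.22 (limma adjusted p = 0.350). LINC01547 and FAM207A have start sites 0.097 kb apart on opposite strands, and FAM207A varied too widely in sh-KLF5 (127, 355 and 496) for its difference of -0.42 to pass the test (limma adjusted p = 0.659). PTBP1, which encodes a splicing regulator 14.3 kb from LINC01836, differed by -0.10 (limma adjusted p = 0.648). CHD2, whose gene start lies 17.5 kb from that of LINC01578, differed by -0.09 (limma adjusted p = 0.690).

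Members also lay close to each other. LINC01547, LINC00163 and LINC00165 follow one another on chromosome 21 within 100 kb and differed by -0.85, -0.53 and 0.11, so that the signs differed among neighbours on 1 strand, and only the first had an adjusted p under 0.05. LINC00667 and LINC00526 lie on chromosome 18 on opposite strands and differed by -0.21 and 0.34. LINC01443 and LINC01444 were the only pair of close members that were both called.

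The members differed in how much of their sequence was shared with other genes. The bearing of this on the precision of the counts was not tested. In 44 members a part of the exons overlapped another annotated gene (median 7.73% of exonic bases), and 60 members had no such overlap. In 29 members over 10% of the distinct 50-base stretches were shared with other genes, and 27 had 0 shared. The share was highest in LINC01106 (89.2%), LINC01145 (81.7%) and LINC00623 (64.6%), none of which was called, and their values are uncertain because the counting could divide reads between copies. Among the called members the share was 21.9% for LINC00689 and 14.0% for LINC02582, and 6.08% or less for the other 6.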

How the data were processed

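RNA-seq libraries of SKOV3 cells (3 sh-NC, 3 sh-KLF5) were grouped by the labels. The deposited values were counts normalized by the authors with DESeq2-type size factors (unit: a normalized signal, not whole counts), and the submitters' processing notes name HISAT2 2.0.5, featureCounts 1.5.0-p3, DESeq2 1.20.0 and build hg38. The strand setting of the counting is not given in the sources used here. Of 29185 genes, 99.8% had the coordinates of GENCODE 29. All values (100% within 1e-06) were whole multiples of the value of 1 read, so reads per library were recovered (15852319 to 17543896). The deposited table also holds the authors' group means and the log2 fold changes and p-values of their own comparison, which were not used.

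Genes kept by filterByExpr (edgeR 4.0.16, minimum count 10) were fitted with limma 3.58.1 in R 4.3.3, with trend and robust variance, on log2(normalized count + 1), which understates the change of low genes, and p-values were Benjamini-Hochberg adjusted over 15803 genes. Tested on simulated counts for sh-KLF5 against sh-NC, the fit recovered 96 of 98 genes changed by 2 log2 units and 95 of 95 changed by 3, with 7 false calls among 15505 genes. Smaller changes, such as those of most called members, were not simulated, and both groups were given the same spread. Alternatives were edgeR's quasi-likelihood test, DESeq2 1.42.0, other scalings, filters and pseudocounts, and leaving out each library. All values carry counting error as well as the spread between libraries, and a member near the minimum of 20 rests on about that many reads per library.

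The members, gene lists and tests were chosen with earlier results of these data known. Named genes were the called members, the 5 highest members, the nearest protein-coding gene of each called member, the members next to the minimum and a list of LINC genes with published cancer roles. Called genes within 1 Mb of a called member, and the neighbours of members below the fold threshold, were named after their values were seen. The lists of other long noncoding RNAs and of epithelial, fibroblast, leukocyte and endothelial markers were described alongside. Nearest genes were found by gene start in the table. Promoters and microRNAs came from RefSeq (67 of 104 members matched a promoter by symbol) and transcripts from GENCODE 29. Shared stretches were counted as distinct 50-base words of all transcripts of a gene found in a transcript of another gene.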

Additional observations from a re-analysis of the deposited data

How the results depend on the processing

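LINC02582 (log2 fold change -5.12 to -4.27), LINC01133 (-1.69 to -1.26) and LINC02154 (1.93 to 3.05) were called under every alternative run. The other 5 called members rest on low counts or on a fold close to the threshold. With edgeR, DESeq2, TMM factors, a pseudocount of 0.1, no filter or library size as the only factor, the same 8 members were called. With log2(CPM + 1), 1 member was called up, beside 184 of all tested genes, and LINC00662 stood at 0.000258, and at 0.00104 with library size as the only factor and 1 read added (an alternative chosen after seeing the data), against -0.01. With a pseudocount of 5, 3 members were called up. Without the fold threshold, 5 members were called down, with 955 genes up and 1083 down in all and 1 called member beside a called nearest gene, and with the unadjusted p there were 2. A minimum mean of 50 left 62 members with 2 called up, and a minimum of 10 gave 6 called down. Without a filter on low values 811 genes were called down, and a minimum of 10 reads per library left 231, since each changes which low genes are tested. With any tested protein-coding gene within 1 Mb in place of the nearest, chosen after seeing the data, 4 called members had a called neighbour.

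Leaving out 1 library at a time gave 1 to 6 members called up, 2 to 4 called down, 0 to 1 called members with a called nearest gene and a median of -0.017 to 0.083 over the members, beside 253 to 337 genes called up and 461 to 620 down. The difference ranged from -0.28 to 0.28 for IGSF9 and from -0.13 to 0.066 for LINC00662. The fewest members (4) were called without the third sh-NC library, and 5 without the second sh-NC or the second sh-KLF5 library. The cause of these changes was not tested.

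Libraries with the same replicate number were not shown to be paired: their deviations correlated at 0.13, 0.0068 and 0.11 over 13951 genes, and not every library correlated best with its own number. With the replicate number as a block, 9 members were called, LINC01179 (log2 fold change 1.09, limma adjusted p = 0.06 without the block) in addition to the 8.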

Other observations

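Long noncoding RNAs with other names were listed for comparison. Of a list of 35, 31 were in the table and 29 were tested, with 1 called up (3.45%, beside 5.28% over all tested genes), 0 called down and a median log2 fold change of 0.22, against -0.0023 over all tested genes. MIR100HG, the host gene of miR-100, let-7a-2 and miR-125b-1, rose from 129 ± 7.43 to 407 ± 64.0 normalized counts (SD, n = 3, log2 fold change 1.64, limma adjusted p = 3.33e-06). UCA1, first described in bladder carcinoma, stood at 2712 ± 453 in sh-NC and 1440 ± 457 in sh-KLF5 (log2 fold change -0.95, limma adjusted p = 0.00310), short of the fold threshold. The imprinted transcript KCNQ1OT1 (-0.74), the nuclear speckle RNA MALAT1 (-0.59) and TUG1 (-0.39) were lower, and SNHG5 (0.50) and MIR22HG (0.54) higher, each with a limma adjusted p under 0.05 below the fold threshold. NEAT1, the scaffold of paraspeckles, stood at 9040 ± 1704 and 9073 ± 1477 (log2 fold change 0.01), and HOTAIR at 35.4 ± 4.38 and 60.4 ± 4.44 (0.76, limma adjusted p = 0.0592).

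Of the 479 LINC rows below the minimum mean of 20, 220 never exceeded 3 reads and 51 were tested. Of these 51, 2 were called up and 5 down (13.7%, beside 5.28% over all tested genes). Genes this low were tested even where all values of 1 group were 0, so the 2 shares are not comparable. The 7 called genes are named after their values were seen. LINC01415 (30.7, 10.8 and 24.4 normalized counts), LINC00501 (12.1, 13.8 and 13.8) and LINC01597 (11.2, 11.8 and 13.8) were present in every sh-NC library and at 0 in every sh-KLF5 library. LINC01091 and LINC01186 were also lower (fitted log2 fold changes -3.33 and -2.25), and LINC00968 (1.87) and LINC01085 (2.99) were higher. None of the 7 exceeded 33.6 normalized counts in any library.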
